A study of Mus musculus with 4 samples.

Results

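The 9 genes described here handle iron and heme: Slc48a1, Hmox1, Blvrb, Fth1, Ftl1, Slc40a1, Slc11a1, Trf and Tfrc. They were taken by symbol, and all 9 were found among the 27998 genes listed for every library. Hepatic CD45+ leukocytes of adult wild-type C57BL/6 mice were sequenced as single cells in droplets, and each captured RNA molecule was counted once by its unique molecular identifier (UMI). Exercise mice (2 libraries) ran on a motorized treadmill at 12.5 m/min, for 60 min a day on 5 days a week over 4 weeks, and sedentary mice (2 libraries) spent the same sessions on a treadmill that was not moving. The series title places the comparison in a study of exercise before surgery and Kupffer cells. The labels do not say whether a library came from 1 animal or from several, so every p-value of exercise against sedentary measures the spread between these libraries. Where cells of the same library are compared, it measures how that difference varies from library to library.

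Kupffer cells are the resident macrophages of the liver sinusoids, and with splenic macrophages they clear aged and damaged red blood cells. Heme from the digested cells is carried out of the lysosome, cut open by heme oxygenase, and its iron is then held in ferritin or sent back to the blood through ferroportin, where transferrin carries it to cells that take it up by the transferrin receptor. When iron is scarce, iron regulatory proteins bind a hairpin in the mRNA, the iron-responsive element, which blocks translation when it lies in a 5′ UTR and protects the mRNA when it lies in the 3′ UTR of the transferrin receptor.

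The members lie on 7 autosomes of GRCm38. Ferroportin (Slc40a1) is on chromosome 1 from 45908068 to 45926523, minus strand, and Hmox1 on chromosome 8 from 75093621 to 75100589, plus strand. Blvrb (27447978 to 27466144, plus strand) and Ftl1 (45457944 to 45459884, minus strand) are both on chromosome 7. Fth1 is on chromosome 19 from 9980598 to 9985098, plus strand, and Tfrc on chromosome 16 from 32608920 to 32632794, plus strand.

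Iron-responsive elements are shown because they split the members into mRNAs that iron acts on directly after transcription and mRNAs without such a site, whereas the UMI counts measure mRNA only. The sense strand of GENCODE M21 UTRs was searched for a bulged C, 5 bases, the loop CAGTGN and 5 bases more, with the 5 bases before the loop able to pair with the 5 after it, G:T pairs allowed. Capitals mark the bulged C and the 6-base loop.
Slc40a1 5′ UTR, chr1:45925465-45925493, minus strand: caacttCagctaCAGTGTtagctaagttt
Fth1 5′ UTR, chr19:9982732-9982760, plus strand: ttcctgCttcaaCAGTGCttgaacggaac
Ftl1 5′ UTR, chr7:45459779-45459807, minus strand: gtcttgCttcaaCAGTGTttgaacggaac
Tfrc 3′ UTR, first site, chr16:32631219-32631247, plus strand: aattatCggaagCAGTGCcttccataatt
Tfrc 3′ UTR, next site, chr16:32631598-32631626, plus strand: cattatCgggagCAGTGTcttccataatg
Tfrc 3′ UTR, next site, chr16:32631663-32631691, plus strand: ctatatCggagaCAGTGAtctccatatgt
Tfrc 3′ UTR, last site, chr16:32631710-32631738, plus strand: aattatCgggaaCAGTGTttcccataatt
Of 21901 protein-coding genes, 0.1415% held a match in a 5′ UTR and 0.589% in a 3′ UTR. No match was found in the UTRs of Slc48a1, Hmox1, Blvrb, Slc11a1 or Trf, which says only that these letters are not in the annotated windows.

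Barcodes numbered 2991 and 4265 in the exercise libraries and 4165 and 3962 in the sedentary ones, depth was 10050976 to 14849778 UMIs per library, and 14560 of 15383 barcodes were kept. Any pair of libraries shared 11 to 31 barcodes, under 1% of the first library. Kept cells were clustered and fell into 17 classes, of which 13 held at least 20 cells in every library, including 872 cells like liver sinusoidal endothelium although CD45+ cells had been selected, and a class is called "like" a cell type because its name rests on marker genes. Kupffer-like cells (5476 cells) carried the leukocyte marker Ptprc at 392 to 442 CPM and the Kupffer markers Clec4f at 3474 to 4146 CPM and Vsig4 at 2954 to 3270 CPM, where CPM is UMIs per 1000000 UMIs of that class in that library. The 9 hepatocyte markers, none at 0 in all libraries, were lower in both exercise libraries in Kupffer-like cells, at 157 and 112 CPM in sum after exercise against 1464 and 719 CPM in sedentary mice. The 4 hemoglobin genes summed to 101 and 296 CPM after exercise against 2103 and 892 CPM in sedentary mice. A single cell per library held a large part of these hemoglobin UMIs. It held 187 of 391 and 1593 of 1778 after exercise, and 3331 of 6874 and 2122 of 3700 in sedentary mice. Mitochondrially encoded transcripts made up 6.66% and 6.14% of the UMIs of Kupffer-like cells after exercise and 8.44% and 7.22% in sedentary mice. The part of these transcripts in the results below was tested only by leaving cells out.

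Heme oxygenase 1 and ferroportin were the most Kupffer-restricted of the members. Kupffer-like cells held 38.9% of all UMIs in kept cells, but 87.7% of the Slc40a1 UMIs, 85.4% of the Hmox1 UMIs, 78.3% of the Slc11a1 UMIs, 74.1% of the Trf UMIs and 72.7% of the Blvrb UMIs. Their share was nearer the class's size for Slc48a1 (65.4%), Ftl1 (57.9%), Tfrc (54.0%) and Fth1 (50.3%). These levels describe classes that were clustered from the same cells, with Hmox1, Slc40a1, Fth1 and Trf among the genes used, and no class was tested against the rest.

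**Figure D1:**
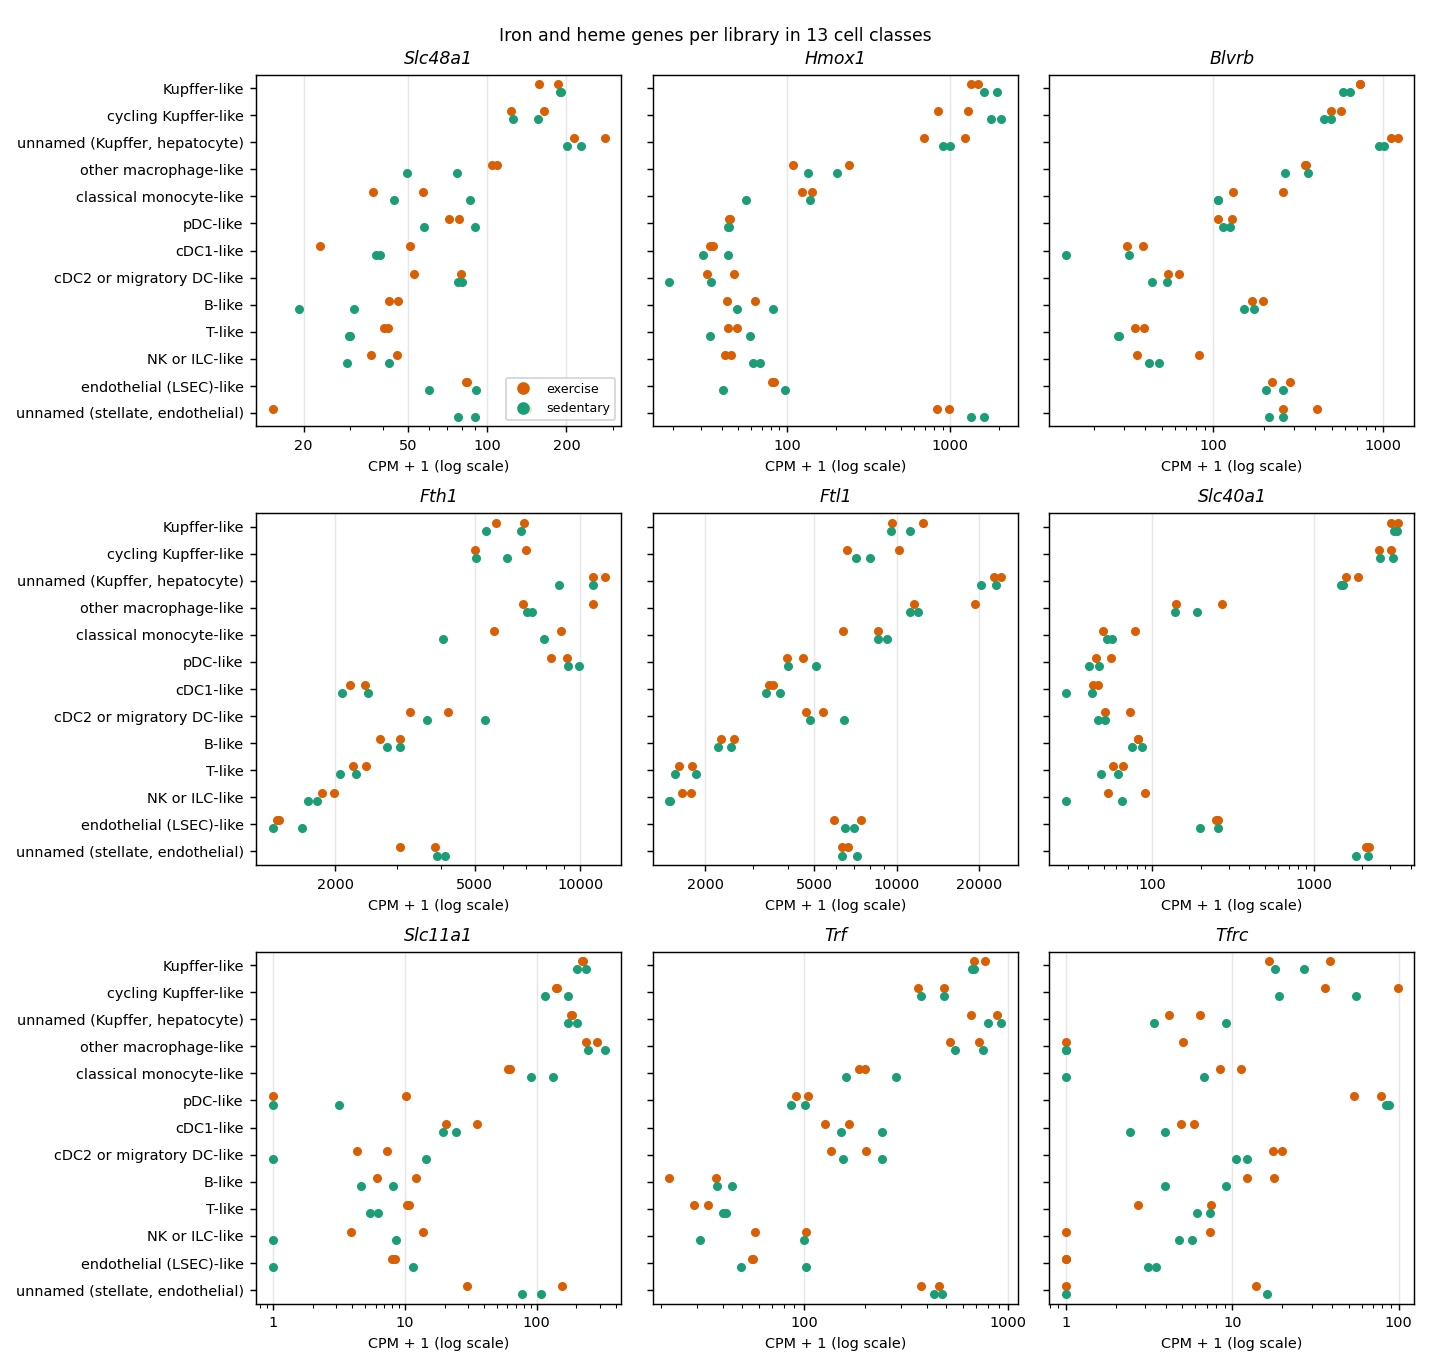
CPM + 1 on a log scale (x axis) of each member in 13 cell classes (y axis), with 1 point per library in the colour of its group. Slc40a1 and Hmox1 stand highest in Kupffer-like and cycling Kupffer-like cells, Fth1 is high in pDC-like cells, and Tfrc is highest in pDC-like and cycling Kupffer-like cells.

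Slc48a1 (HRG1), which moves heme out of the phagolysosome, averaged 180 ± 15.5 CPM in Kupffer-like cells (SD, n = 4 libraries) and 230 ± 34.7 CPM in an unnamed cluster that carried both Kupffer and hepatocyte transcripts. Hepatocyte markers in that cluster summed to 150.2 and 149.8 CPM after exercise and to 2157 and 881.5 CPM in sedentary mice. Kupffer-like cells carried them too, as given above, so the short name "with hepatocyte transcripts" used below is only a label. Cycling Kupffer-like cells, at 141 ± 20.7 CPM, overlapped with Kupffer-like cells in range, and all other classes averaged 83.7 CPM or less. Hmox1, which opens the heme ring and frees its iron, averaged 1595 ± 257 CPM in Kupffer-like and 1490 ± 537 CPM in cycling Kupffer-like cells, and these ranges overlapped. Next came the 2 unnamed clusters, at 1192 ± 348 CPM where stellate and endothelial transcripts were mixed in and 955 ± 223 CPM where hepatocyte transcripts were. Below a gap followed other macrophage-like cells at 171 ± 60.0 CPM, and the lowest class, cDC2 or migratory DC-like cells, was at 32.4 ± 11.7 CPM. Blvrb, which reduces the biliverdin made from heme, was highest in the unnamed cluster with hepatocyte transcripts at 1073 ± 119 CPM, without overlap, and reached 674 ± 75.6 CPM in Kupffer-like cells, 332 ± 45.6 CPM in other macrophage-like cells and 241 ± 35.6 CPM in cells like liver sinusoidal endothelium. It was also seen in B-like cells, at 173 ± 18.5 CPM, against 31.4 ± 5.65 CPM in T-like cells, without overlap of the ranges.

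The ferritin subunits were expressed in every class but did not rank the classes alike. Fth1 encodes the heavy subunit, which oxidizes iron on entry, and Ftl1 the light subunit, which helps form the iron core. Fth1 in pDC-like cells stood at 8264 and 9126 CPM after exercise and at 9206 and 9892 CPM in sedentary mice, next below the unnamed cluster with hepatocyte transcripts at 10542 ± 1312 CPM, whose range it overlapped. In Kupffer-like cells Fth1 averaged 6208 ± 757 CPM, which overlapped with classical monocyte-like and other macrophage-like cells. For Ftl1 the same pDC-like cells ranked 9 of 13 classes, at 4405 ± 520 CPM, and Kupffer-like cells ranked 3, at 10709 ± 1393 CPM. Endothelial cells showed the opposite order: their Fth1 was the lowest of 13 classes at 1419 ± 126 CPM, while their Ftl1 ranked 6 at 6699 ± 641 CPM. Part of the ferritin light chain signal can be misplaced between copies, since Gm10116 is 99.56% identical to Ftl1 over 910 bases and is counted as a gene of its own. It is the only 1 listed of 7 such copies of Ftl1 (at least 90% identical over 200 bases). Gm10116 had 98.2 and 212 CPM after exercise and 102 and 192 CPM in sedentary mice in Kupffer-like cells.

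Among the transporters, Slc40a1 (ferroportin, the exporter of iron) averaged 3197 ± 135 CPM in Kupffer-like cells and 2804 ± 284 CPM in cycling Kupffer-like cells. After the unnamed clusters, at 2080.5 ± 173 CPM with stellate and endothelial and 1620.3 ± 184 CPM with hepatocyte transcripts, it dropped to 238 ± 27.2 CPM in endothelial cells, 184 ± 62.1 CPM in other macrophage-like cells and 80.3 CPM or less in the remaining named classes. Slc11a1 (NRAMP1, which pumps iron and other metals out of the phagosome) was highest in other macrophage-like cells at 273 ± 41.9 CPM, which overlapped with Kupffer-like cells at 221 ± 14.2 CPM, and the unnamed cluster with hepatocyte transcripts (185 ± 12.4 CPM), cycling Kupffer-like cells (142 ± 23.04 CPM), the unnamed cluster with stellate and endothelial transcripts (91.3 ± 52.6 CPM) and classical monocyte-like cells (85.3 ± 33.3 CPM) followed. Trf, the plasma iron carrier that hepatocytes secrete, was at 817 ± 118 CPM in the unnamed cluster with hepatocyte transcripts, 700.2 ± 49.96 CPM in Kupffer-like and 636 ± 117 CPM in other macrophage-like cells, against 34.2 ± 9.41 CPM in B-like cells. Gm20425, 100% identical to Trf over 1517 bases, is listed as a gene of its own and had 0 UMIs in kept cells. Whether reads matching both genes were left out of the Trf counts is not known. Tfrc, the receptor that takes transferrin into cells, was, like Slc11a1 and both ferritins, not highest in Kupffer-like cells among the named classes. It averaged 74.9 ± 15.04 CPM in pDC-like cells and 51.4 ± 34.4 CPM in cycling Kupffer-like cells, against 24.2 ± 10.2 CPM in Kupffer-like cells, and neighbours in this order overlapped. pDC-like cells, with 4.71% of all UMIs, held 147 of the Tfrc UMIs, and Kupffer-like cells, with 38.9%, held 397.

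Shares of cells with a UMI showed the same contrast after every cell was thinned to 1000 UMIs, with 34 Kupffer-like and 8 T-like cells of sedentary replicate 1 left out as shallower. Hmox1 was seen in 59.2% and 56.6% of Kupffer-like cells after exercise and in 61.2% and 69.6% in sedentary mice, whereas T-like cells, which should lack it, had a UMI in 3.96% and 3.91% after exercise and 3.19% and 5.79% in sedentary mice. Unthinned, the Kupffer-like shares were 84.1% and 84.4% after exercise and 81.6% and 92.2% in sedentary mice. Slc40a1 was seen in 94.2% and 93.0% of thinned Kupffer-like cells after exercise and 93.6% and 95.3% in sedentary mice, against 4.54% to 7.40% of T-like cells. Median depths in the 4 libraries were 2253 to 2936 UMIs in Kupffer-like and 2441 to 3022 UMIs in T-like cells. In endothelial cells Slc40a1 was seen in 19.7% to 22.1% of cells, above the T-like share in every library. Tfrc was seen in 1.55% to 3.88% of Kupffer-like cells, so most cells of that class gave no Tfrc UMI at this depth.

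The genes closest in pattern to each member over the 13 classes were found by the Pearson correlation of log2(CPM + 1) class means among 5548 genes, with classes of 1 library sharing its depth and free RNA. For Slc40a1 these were Pmp22 (r = 0.987), Fcna (0.979) and Dmpk (0.978), and for Hmox1 they were C4b (0.986), Abhd11os (0.979) and Fcna (0.974). Slc11a1 was closest to Clec4n (0.954), Pdlim4 (0.943) and Trem2 (0.941), Trf to AF251705 (0.963), Aif1 (0.962) and Tmem141 (0.955), and Blvrb to Lgmn (0.920), Dram2 (0.912) and Mup7 (0.903). Fth1 was closest to Tlr7 (0.914), Cd68 (0.913) and Milr1 (0.891), while Ftl1 was closest to its near-copy Gm10116 (0.985), Hexa (0.950) and Asah1 (0.921). Slc48a1 was closest to Tmem14c (0.954), Psma6 (0.928) and Gng5 (0.922), and Tfrc to Spcs3 (0.814), Hnrnpul1 (0.806) and Hnrnpc (0.786).

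Within Kupffer-like cells the members did not move together. When the cells were clustered without the iron and heme genes, the class still fell mainly into a subcluster of 3047 cells with a median of 1927 UMIs and 9.81% mitochondrial UMIs, and a subcluster of 2422 cells with a median of 4262 UMIs and 5.20% mitochondrial UMIs. The shallow subcluster had the higher Hmox1, at 2210 and 2179 CPM after exercise and 2117 and 2713 CPM in sedentary mice, against 1031 and 1029 CPM after exercise and 1157 and 1384 CPM in sedentary mice in the deep one. Hmox1 was 1.83 to 2.14 times higher there in the 4 libraries, Slc40a1 1.33 to 1.45 times and Slc48a1 1.10 to 1.20 times. Tfrc was 1.85 to 3.16 times higher there, from few UMIs.

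The ferritins, Blvrb, Trf and Slc11a1 ran the other way and were lower in the shallow subcluster in all 4 libraries. Blvrb stood at 0.531 to 0.584 of its level in the deep subcluster, Ftl1 at 0.543 to 0.603, Fth1 at 0.623 to 0.663, Slc11a1 at 0.551 to 0.665 and Trf at 0.603 to 0.693. Heme oxygenase and ferroportin thus stood higher in the shallow subcluster, and biliverdin reductase and the ferritins in the deep one. Depth and the mitochondrial share moved with this contrast, and so did hemoglobin transcripts, at 1586 CPM in the shallow and 247 CPM in the deep subcluster over all libraries, and hepatocyte markers, at 666 CPM in the shallow and 442 CPM in the deep one. Their part in the contrast was not tested, and single cells held a large part of the hemoglobin UMIs, as given above. The shallow subcluster made up 59.3% and 45.2% of Kupffer-like cells after exercise and 63.7% and 58.8% in sedentary mice.

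**Figure D2:**
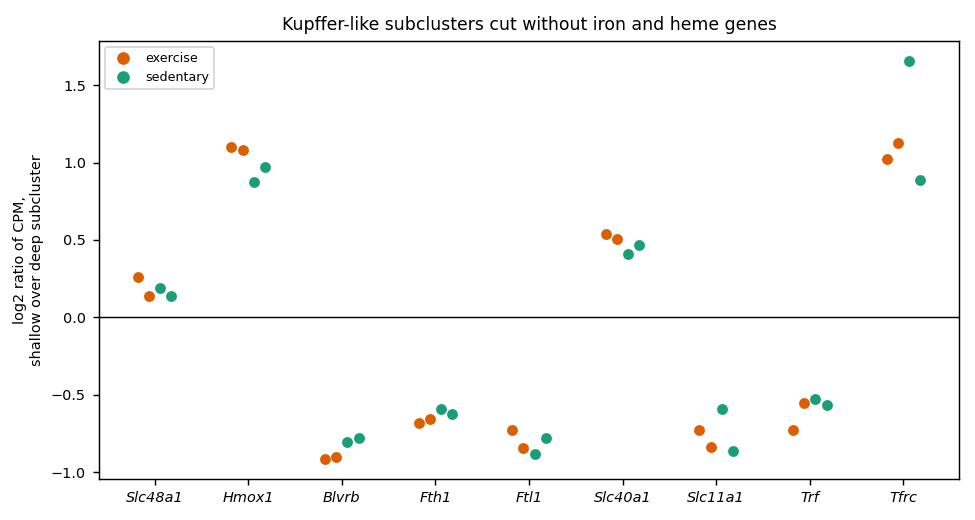
Log2 of each member's CPM in the shallow over the deep Kupffer-like subcluster (y axis), with 1 point per library. Slc48a1, Hmox1, Slc40a1 and Tfrc lie above 0 and Blvrb, Fth1, Ftl1, Slc11a1 and Trf below 0 in all 4 libraries.

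Exercise against sedentary, 0 of the 9 members passed the test in Kupffer-like cells (edgeR quasi-likelihood F-test, adjusted p under 0.05), where 0.334% of the 9868 genes tested passed. The members' median log2 change was 0.08, against 0.0015 for all genes tested. At an unadjusted p under 0.05 the members numbered 2, Hmox1 and Blvrb, which lay in opposite directions, and 584 of all 9868 genes (5.92%) reached that level. DESeq2 also called 0 members.

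Hmox1 had 1488 and 1342 CPM after exercise, against 1603 and 1946 CPM in sedentary Kupffer-like cells. Both exercise values lay below both sedentary values. The log2 change was -0.31 (SE 0.133), with an unadjusted p of 0.048 and an adjusted p of 0.840. Its sign was the same under all 17 alternative settings, and the log2 change was -0.53 (adjusted p 0.462) in cells without a hepatocyte UMI and -0.13 at the closest to 0. Within the deep subcluster both exercise libraries were also lower in Hmox1 than both sedentary ones, whereas within the shallow subcluster the groups overlapped.

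Blvrb had 737 and 736 CPM after exercise, against 583 and 641 CPM in sedentary Kupffer-like cells. The groups did not overlap, and the log2 change was 0.28 (SE 0.108, unadjusted p 0.032, adjusted p 0.796). It was 0.51 in cells without a hepatocyte UMI (adjusted p 0.336) and above 0 under all 17 settings. In each subcluster the lowest exercise value of Blvrb was near or above the highest sedentary one, at 842 CPM after exercise against 772 CPM in sedentary mice in the deep subcluster and at 450.1 CPM after exercise against 450.6 CPM in sedentary mice in the shallow one.

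Slc40a1, the iron exporter, had 3330.3 and 3023 CPM after exercise, against 3164 and 3269.9 CPM in sedentary Kupffer-like cells. The groups overlapped and the log2 change was -0.0014 (SE 0.105, adjusted p 0.999). Its sign changed with the setting, within -0.11 and 0.06.

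Slc48a1 had 185 and 157 CPM after exercise, against 188 and 189 CPM in sedentary mice, with a log2 change of -0.13 (SE 0.113, adjusted p 0.914). The groups did not overlap, but 185 and 188 CPM were nearly equal. Trf had 680.4 and 775 CPM after exercise, against 679 and 667 CPM in sedentary mice, a log2 change of 0.13 (SE 0.111, adjusted p 0.903). Leaving out a library gave -0.23 (without exercise replicate 1) to -0.03 (without exercise replicate 2) for Slc48a1, and 0.02 (without exercise replicate 2) to 0.25 (without exercise replicate 1) for Trf. Non-overlap of the groups held for 4 of 9 members and for 35.2% of all genes tested.

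The ferritins varied by replicate number more than by group. Fth1 had 5760.3 and 6924 CPM after exercise, against 5379 and 6770.4 CPM in sedentary mice. Ftl1 had 9625 and 12479 CPM after exercise, against 9565 and 11166 CPM in sedentary mice. Replicate 2 was the higher library of each group for both genes, and the log2 changes were 0.08 (SE 0.162, adjusted p 0.958) for Fth1 and 0.11 (SE 0.165, adjusted p 0.944) for Ftl1. Both turned negative without exercise replicate 2, at -0.08 for Fth1 and -0.11 for Ftl1, and without sedentary replicate 1, at -0.11 for Fth1 and -0.03 for Ftl1. Adding the Gm10116 counts to Ftl1 did not change its sign.

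Slc11a1 had 224 and 221 CPM after exercise, against 202 and 237 CPM in sedentary mice, a log2 change of 0.04 (SE 0.123, adjusted p 0.982). Tfrc had 37.9 and 15.7 CPM after exercise, from 147 and 94 UMIs, against 26.0 and 17.1 CPM in sedentary mice, from 85 and 71 UMIs. The lowest Tfrc value lay in an exercise library and so did the highest, and its log2 change of 0.29 (SE 0.385, adjusted p 0.935) fell to -0.40 without exercise replicate 1.

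In cells without a hepatocyte UMI, which are fewer, the log2 changes of most other members also moved away from 0 without passing: to 0.39 for Fth1, 0.51 for Ftl1, 0.45 for Slc11a1, 0.60 for Trf and -0.25 for Slc48a1, with adjusted p-values from 0.329 to 0.636, whereas Tfrc moved to 0.01 and Slc40a1 to -0.11. A cell with few UMIs is more likely to hold none of the markers, which summed to 1464 and 719 CPM in sedentary mice against 157 and 112 CPM after exercise. This setting can therefore select shallower cells, more so in the sedentary libraries. The depth of the cells kept was not compared, for these members or for Hmox1 and Blvrb above.

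**Figure D3:**
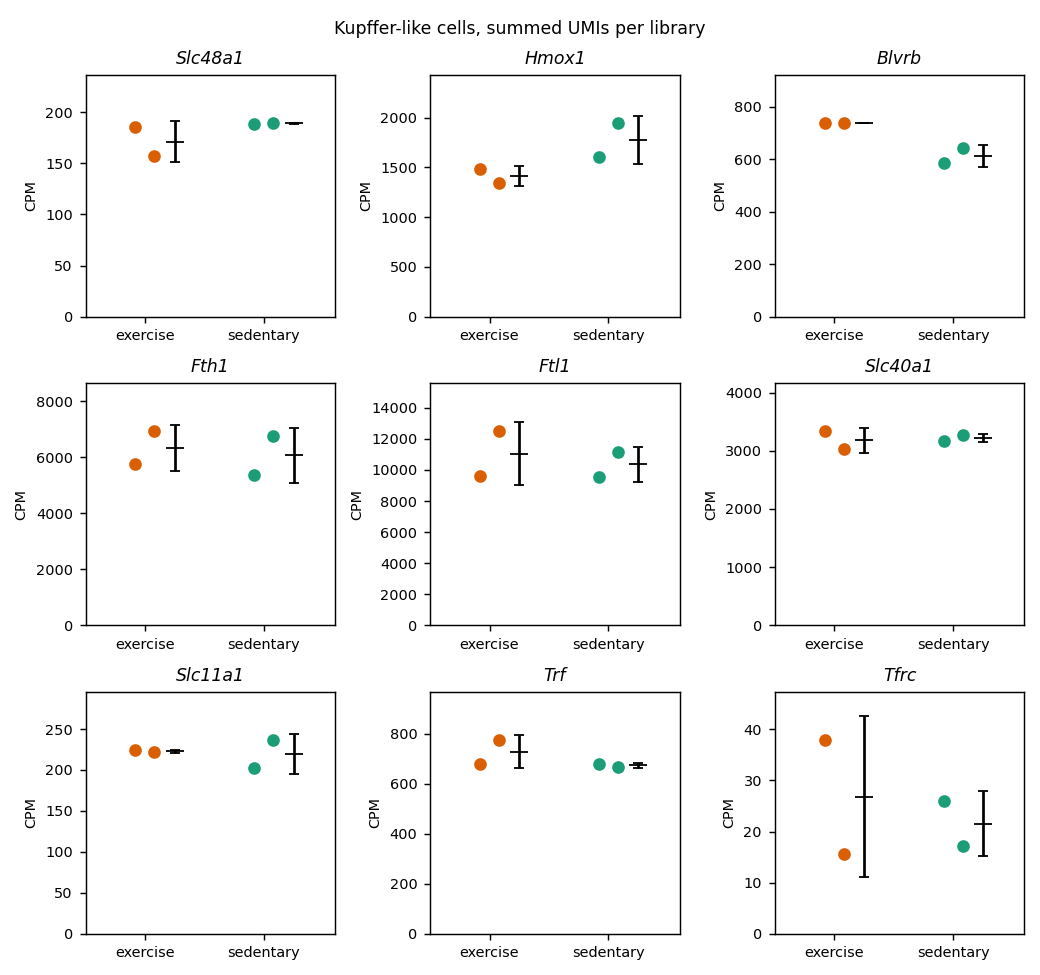
CPM of each member in Kupffer-like cells (y axis from 0), with 1 point per library, exercise left and sedentary right, and black bars for the mean and SD of each group (n = 2). Hmox1 is lower and Blvrb higher in both exercise libraries, and Slc40a1 lies between 3023 and 3330.3 CPM in all 4.

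In the other 12 classes 0 of 91 tests of a member passed, and 0.0522% of the 53672 tests over all genes and these classes did. Of the 91, 51 had a log2 change above 0 and 40 below, and 10 had an unadjusted p under 0.05, as had 4.99% of the 53672 tests over all genes, while DESeq2 also called 0. The count reached 1 or 2 when a library was left out, with Hmox1 in cycling Kupffer-like cells (described next), Ftl1 (log2 change 0.70) and Fth1 (0.57) in other macrophage-like cells without exercise replicate 1, and Fth1 in classical monocyte-like cells without sedentary replicate 2 (0.88). Blvrb lay above 0 in 11 of 12 classes and Slc40a1 in 11 of 12, Trf below 0 in 9 of 12 and Hmox1 below 0 in 8 of 12. The classes come from the same 4 libraries and share their free RNA, so these counts are not independent of each other.

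Hmox1 in cycling Kupffer-like cells had the lowest p of these tests. It had 837 and 1294 CPM after exercise, from 171 and 627 UMIs, against 1769.5 and 2059 CPM in sedentary mice, from 227 and 572 UMIs. Both exercise libraries lay below both sedentary ones, with a log2 change of -0.81 (SE 0.180, adjusted p 0.155), in a class in which 0.0819% of 3663 genes passed. The class held 42 and 113 cells after exercise and 38 and 68 cells in sedentary mice. Leaving out a library moved the log2 change to -1.20 (adjusted p 5.65e-06) without exercise replicate 2, -0.92 (4.17e-05) without sedentary replicate 1, -0.66 (0.932) without sedentary replicate 2 and -0.53 (0.656) without exercise replicate 1. The adjusted p was 0.00511 with the replicate number as a block and 0.00927 with no low-count filter, and from 0.153 to 0.9997 under the other 6 alternatives. Hepatocyte markers in these cells summed to 132 and 82.5 CPM after exercise against 1052 and 479 CPM in sedentary mice, and their part in the difference was not tested in this class.

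In the unnamed cluster with stellate and endothelial transcripts, Hmox1 had 834 and 987 CPM after exercise, against 1604 and 1344 CPM in sedentary mice, with a log2 change of -0.71 (SE 0.221, adjusted p 0.9998). In classical monocyte-like cells Slc11a1 had 61.5 and 59.75 CPM after exercise, against 131 and 89.0 CPM in sedentary mice (log2 change -0.82, SE 0.349, adjusted p 0.9999), from 12 to 31 UMIs per library. In T-like cells Slc11a1 lay the other way, at 9.53 CPM after exercise against 4.85 CPM (log2 change 0.90, SE 0.399, adjusted p 0.726). Slc48a1 had 103 and 108 CPM after exercise, against 75.4 and 48.4 CPM in sedentary other macrophage-like cells (log2 change 0.77, SE 0.308, adjusted p 0.769). It was also higher after exercise, without overlap, in B-like cells (log2 change 0.75, SE 0.279, adjusted p 0.843) and T-like cells (0.41, SE 0.183, adjusted p 0.726). In pDC-like cells Fth1 averaged 8695 ± 610 CPM after exercise and 9549 ± 485 CPM in sedentary mice (SD, n = 2 each), a log2 change of -0.15 (SE 0.0631, adjusted p 0.943). Hepatocyte markers summed to 282 and 200.2 CPM after exercise against 1833 and 734 CPM in sedentary mice in the unnamed cluster, to 41.0 and 22.4 CPM after exercise against 266.5 and 149 CPM in sedentary classical monocyte-like cells, to 44.3 and 50.9 CPM after exercise against 890.5 and 335 CPM in sedentary other macrophage-like cells, and to 18.1 and 15.1 CPM after exercise against 239 and 54.3 CPM in sedentary pDC-like cells. Their part in these values was not tested.

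Trf, which hepatocytes make in quantity, was lowest in B-like and T-like cells, and its change in the lymphocyte classes did not pass the test. In T-like cells it had 27.95 and 33.0 CPM after exercise, against 39.1 and 40.6 CPM in sedentary mice (log2 change -0.44, SE 0.189, adjusted p 0.713). The 9 hepatocyte markers in the same cells summed to 22.8 and 20.2 CPM after exercise against 402 and 154 CPM in sedentary mice, each of them lower in both exercise libraries. The part of these transcripts in the Trf values was not tested.

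**Figure D4:**
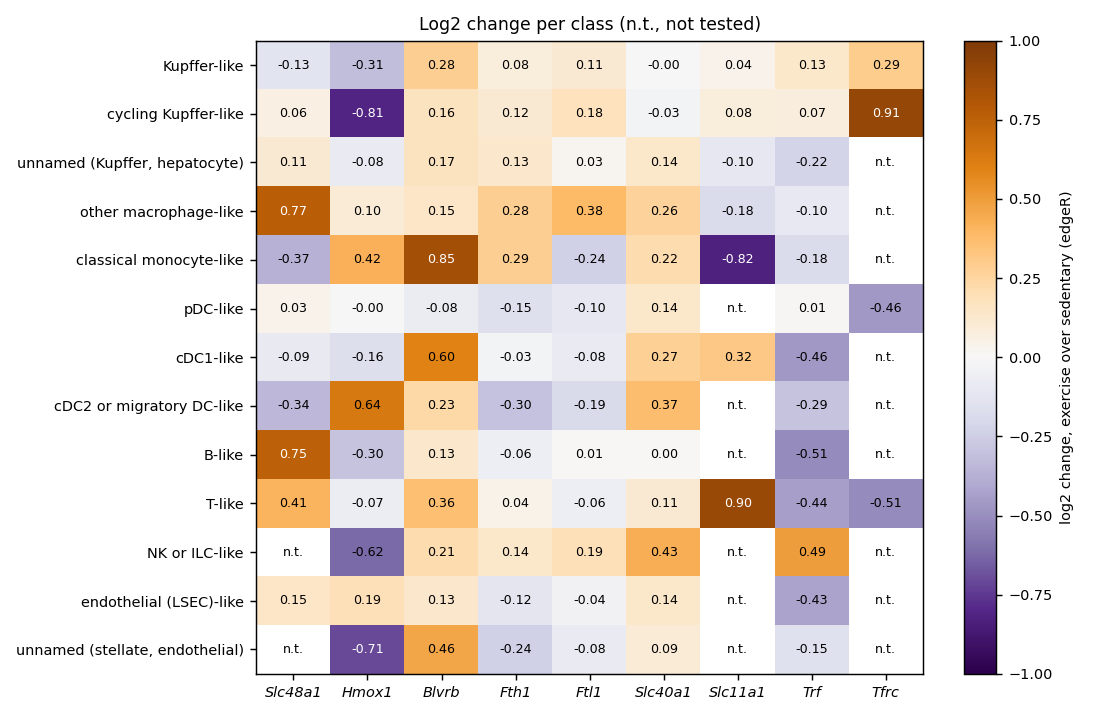
Log2 change, exercise over sedentary, from edgeR for each member (columns) in each of 13 classes (rows), with n.t. where the gene did not pass the low-count filter. Negative values for Hmox1 are largest in cycling Kupffer-like cells at -0.81, and no cell of the map passed the test.

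A red blood cell taken up by a macrophage can leave its hemoglobin mRNA in the droplet, so Kupffer-like cells with at least 1 hemoglobin UMI were compared with those without, in the same library. Hemoglobin was seen in 1.94% and 2.69% of Kupffer-like cells after exercise and in 9.57% and 5.23% in sedentary mice. T-like cells, which do not take up red blood cells, had shares of 0.180% and 1.72% after exercise and 8.96% and 3.05% in sedentary mice. B-like cells had shares of 0.833% and 1.30% after exercise and 6.59% and 3.67% in sedentary mice. The sedentary replicate 1 share in particular was close to that of T-like cells. T-like cells are not a clean background, since hemoglobin genes were among the leading genes of a T-like cluster. Erythroid markers summed to 7844 CPM in T-like and 41.06 CPM in B-like cells of sedentary replicate 1. Cells were thinned to 1000 UMIs with the hemoglobin genes set aside, but were called positive or negative before thinning. Positive cells were the deeper ones, with medians of 3149 and 3717 UMIs after exercise and 2700 and 4247 UMIs in sedentary mice. Negative cells had medians of 2693.5 and 2915 UMIs after exercise and 2184 and 2780 UMIs in sedentary mice. Thinning evened the UMIs used per cell but did not match the cells by their original depth.

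With the library as a block, 0 of 9 members passed (edgeR, adjusted p 0.999 for each; 0 at an unadjusted p under 0.05, and 0 called by DESeq2), where 0.0142% of 7024 genes did, namely the plasma cell gene Jchain (log2 difference 3.89, SE 0.388, adjusted p 8.65e-20), a call that was lost without sedentary replicate 2 (log2 difference -1.03), without sedentary replicate 1, with no library block and with DESeq2. Hmox1 had 1783 and 1723 CPM in hemoglobin-positive cells after exercise and 1603 and 2284 CPM in those of sedentary mice, against 1846 and 1629 CPM in hemoglobin-negative cells after exercise and 1872 and 2427 CPM in those of sedentary mice. Positive cells were lower in 3 of 4 libraries, and the log2 difference was -0.24 (SE 0.138). The median log2 difference was -0.20 over the members and -0.12 over all genes tested. Fth1 (6303 ± 990 against 5449 ± 665 CPM) and Ftl1 (10484 ± 1475 against 9168 ± 1269 CPM) were higher in positive cells in all 4 libraries. Their log2 differences were only 0.03 (SE 0.132) and 0.01 (SE 0.133), and the other 7 members lay below 0. Blvrb averaged 564 CPM in positive and 566 CPM in negative cells, with a log2 difference of -0.16. For these genes edgeR thus lay below the CPM, and the reason was not tested.

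With a threshold of 3 hemoglobin UMIs, only 5 to 10 positive cells per library remained, and 6 of 9 members were lower in them than in cells without hemoglobin, where 3.83% of 6057 genes were called lower (232 genes) and 0 higher. With so few cells a gene of few UMIs can hardly be called lower. The share over all genes is therefore not a like background for abundant members. The log2 differences were -1.27 for Hmox1 (SE 0.282, adjusted p 0.0012), -0.998 for Slc40a1 (SE 0.244, adjusted p 0.0034), -1.08 for Ftl1 (SE 0.218, adjusted p 0.000287) and -0.98 for Fth1 (SE 0.229, adjusted p 0.0023). Blvrb, at -1.30 (SE 0.417, adjusted p 0.0499), and Slc48a1, at -3.47 (SE 1.05, adjusted p 0.0296), also passed. Trf, at -1.03 (SE 0.379, adjusted p 0.108), Slc11a1, at -0.26, and Tfrc, at -0.80, did not. The values of Slc40a1, Ftl1, Fth1 and Trf lay close together, and a shift shared by all genes was not tested. At the threshold of 1 UMI the CPM of Fth1 and Ftl1 lay the other way, as given above. Slc48a1 averaged only 184 CPM in hemoglobin-negative cells, so its value rests on very few UMIs in the positive cells. The highest hemoglobin counts in a single cell were 187 and 1593 UMIs after exercise and 3331 and 2122 UMIs in sedentary mice.

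Of 66 other genes of iron and heme handling, 64 were listed and 52 tested in Kupffer-like cells, exercise against sedentary, and 0 were higher and 2 lower. Both belong to the list of hemoglobin and heme scavengers. Hpx (hemopexin, the plasma carrier of heme) had 2.58 and 4.17 CPM after exercise, against 52.6 and 28.7 CPM in sedentary mice (log2 change -3.48, SE 0.356, adjusted p 0.0194). Hp (haptoglobin, which binds free hemoglobin in plasma) had 5.93 and 5.17 CPM after exercise, against 57.2 and 24.1 CPM in sedentary mice (log2 change -2.83, SE 0.411, adjusted p 0.0481). Hpx is a member of the hepatocyte marker list given above, and all 9 markers of that list were lower in both exercise libraries. In Kupffer-like cells without any hepatocyte-marker UMI, a setting that sets Hpx to 0 by its construction and holds fewer cells, Hp had a log2 change of -2.02 (SE 0.450, adjusted p 0.251).

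The other 4 genes of that list did not pass. Stab1, a scavenger receptor, had 42.0 and 57.0 CPM after exercise, against 66.4 and 74.5 CPM in sedentary mice (log2 change -0.48, SE 0.174, adjusted p 0.763), and Lrp1, the hemopexin receptor, had 561 and 571 CPM after exercise, against 589.7 and 578 CPM in sedentary mice (log2 change -0.03, SE 0.0964, adjusted p 0.982). The groups of both genes did not overlap. Cd163, the receptor for the haptoglobin and hemoglobin complex, had 603 and 596 CPM after exercise, against 583 and 611 CPM in sedentary mice. Mrc1, the mannose receptor, had 846 and 678 CPM after exercise, against 726 and 715 CPM in sedentary mice.

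The heme handling list had 0 of 14 tested genes called and a median log2 change of 0.03, led in level by Hebp1, a heme-binding protein, with 199 and 183 CPM after exercise against 202 and 193 CPM in sedentary mice, and by Hmox2, the constitutive heme oxygenase, with 132 and 127 CPM after exercise against 127 and 131 CPM in sedentary mice. The iron transport and reduction list had 0 of 8 called, its most abundant genes being Mcoln1, a lysosomal iron channel, with 26.0 and 17.998 CPM after exercise against 27.5 and 31.1 CPM in sedentary mice, and Slc25a28, a mitochondrial iron importer, with 14.2 and 17.7 CPM after exercise against 14.99 and 20.7 CPM in sedentary mice.

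The iron storage and ferritin turnover list had 0 of 6 called, with the iron chaperones Pcbp2 at 438 and 454 CPM after exercise against 477 and 449 CPM in sedentary mice and Pcbp1 at 263 and 273 CPM after exercise against 326 and 283 CPM in sedentary mice. The iron sensing and hormone list had 0 of 9 called and a median log2 change of -0.23. Its most abundant genes were Hfe, which takes part in iron sensing, with 261 and 249 CPM after exercise against 235 and 217 CPM in sedentary mice, and Id1, a target of BMP signalling, with 149 and 164 CPM after exercise against 168 and 317 CPM in sedentary mice. The transcription factor list had 0 of 9 called, with Nr1h3 (LXRα), needed for Kupffer cell identity, at 536 and 442 CPM after exercise against 514 and 478 CPM in sedentary mice, and Nfe2l2 (NRF2), an activator of Hmox1, at 146 and 183 CPM after exercise against 161 and 227 CPM in sedentary mice. In the hemoglobin comparison 0 of 44 genes of these lists passed.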

How the data were processed

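The authors deposited raw UMI counts per gene and barcode. The submitters' processing notes name Cell Ranger, Seurat 3.1 and mm10 (GRCm38), and the series text a pre-mRNA reference, so intronic reads may be included. No source used here states whether counting used strand. Barcodes needed 500 UMIs, 200 genes and no more than 20% mitochondrial UMIs, and 460 high-scoring doublets were removed (0.8% per 1000 cells). Leiden clustering (2000 variable genes, 30 principal components, 20 neighbours, resolution 1.0, seed 1, leidenalg 0.10.2) used centred, unscaled values, chosen after scaled values split Kupffer cells by library. Classes were named from marker lists.

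UMIs were added up over the cells of a class in each library, and the sums tested with edgeR 4.0.16 (R 4.3.3; TMM, filterByExpr, quasi-likelihood F-test without covariates, Benjamini-Hochberg at 0.05), a procedure tested on simulated data, with DESeq2 1.42.0 as an alternative. In those simulations, with the same spread for every gene, a log2 change of 1 was recovered for 49% of changed genes in the exercise comparison. In the hemoglobin comparison it was recovered for 14.5%. At a log2 change of 2 these were 97.5% and 60.5%. Smaller changes were not simulated, so a member that did not pass may still differ. Precision is limited by 2 libraries a group, and counting error adds to it for genes with few UMIs. All members were named, with wider-list genes past a test or among the 2 most abundant per list, and the 3 genes of most similar pattern among those with at least 50 CPM in a class. Members, lists and tests were chosen with earlier results of these data known. Names outside this rule (Gm10116, Gm20425, the marker genes, Jchain, and the genes in the closing observations) were chosen after their values were seen.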

Additional observations from a re-analysis of the deposited data

How the results depend on the processing

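Precision was limited by 2 libraries a group. The replicate numbers were not shown to pair the libraries (r = 0.19 between deviations of same-numbered libraries over 9868 genes, 2 pairs). The cause of the changes below was not tested.

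In Kupffer-like cells 0 members passed under any of the alternatives run. The gene calls there, 1 higher and 32 lower, became 1 and 69 with DESeq2, 19 and 200 with no low-count filter, 7 and 126 with the replicate block, 1 and 54 without cells holding a hemoglobin UMI, and 0 and 0 without cells holding a hepatocyte UMI, where fewer cells remained. Leaving out a library gave 1 to 2 higher and 13 (without exercise replicate 2) to 92 (without sedentary replicate 1) lower.

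In the other classes 1 member passed with no low-count filter and 1 with the replicate block, each time Hmox1 in cycling Kupffer-like cells. Leaving out a library gave 1 to 2 passing members: Ftl1 (log2 change 0.70, adjusted p 7.4e-08) and Fth1 (0.57, adjusted p 2.18e-05) in other macrophage-like cells without exercise replicate 1, Fth1 in classical monocyte-like cells without sedentary replicate 2 (0.88, adjusted p 0.00011), and Hmox1 in the remaining cases. In the hemoglobin comparison 6 members passed at 3 UMIs, and 0 in the other settings run.

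Of 165 log2 changes of members under alternatives, 145 kept their sign and missed the threshold, 4 passed it and 16 changed sign. Slc40a1 in Kupffer-like cells was at 0.0029 with DESeq2, 0.011 with no low-count filter, 0.0057 with doublets kept, 0.0012 with the stricter minimum of 1000 UMIs and 0.0081 without the erythroid-led cluster. In settings added after seeing the data it was at 0.00032 with scaling before the principal components and at 0.025 with the unnamed Kupffer and hepatocyte cluster added. Slc11a1 was at -0.023 without the erythroid-led cluster. That name is only a label for a cluster of 2285 cells within the Kupffer-like class. Its mean log2 fold was 1.258 for erythroid genes, barely above 1.243 for Kupffer genes. All 12 Kupffer genes, but 0 of 6 erythroid genes, reached 10% of its cells. Hmox1 was among its leading genes. The cluster held 33.9% to 52.3% of the Kupffer-like cells of a library, so leaving it out removed a large part of the class. Leaving out a library spanned -0.060 to 0.057 for Slc40a1, -0.10 to 0.19 for Slc11a1, -0.11 to 0.29 for Fth1, -0.11 to 0.31 for Ftl1, and -0.40 to 0.83 for Tfrc, and kept the sign for Trf (0.017 to 0.25) and Slc48a1 (-0.23 to -0.027).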

Other observations

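Some genes of iron handling stood higher outside the Kupffer-like class. Bmp2, a signal that drives hepcidin in hepatocytes, had 986 and 1438 CPM after exercise and 1463 and 1323 CPM in sedentary mice in cells like liver sinusoidal endothelium, against 4.38 to 7.04 CPM in Kupffer-like cells. Smad6, an inhibitor of the same pathway, averaged 201 ± 29.1 CPM in those endothelial cells and 21.4 ± 5.32 CPM in Kupffer-like cells (SD, n = 4), and Slc39a8, a transporter of metal ions, 184 ± 21.5 CPM and 5.88 ± 0.773 CPM. Bmp2 is also a marker by which the endothelial class was named, so its level there is no finding. Haptoglobin (Hp) was seen in classical monocyte-like cells at 210.1 and 597 CPM after exercise and 643 and 345 CPM in sedentary mice. The groups overlapped for Bmp2, Slc39a8 and Hp in these classes, and Smad6 had 225 and 214 CPM after exercise against 159 and 208 CPM in sedentary mice. These genes were chosen after their values were seen, and the classes were not tested against each other.

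The labels give serum alanine aminotransferase, which rises with liver injury. It was 26 U/L for replicate 1 and 59 U/L for replicate 2 of the exercise group, and 33 U/L for replicate 1 and 56 U/L for replicate 2 of the sedentary group. In both groups the library with the higher value also had the higher Fth1, Ftl1 and Gm10116 and the lower Tfrc in Kupffer-like cells, as given above. The other members, Hmox1, Blvrb, Slc40a1, Slc11a1, Trf and Slc48a1, did not follow the enzyme in the same direction in both groups. The higher enzyme value was that of replicate 2 in each group, so it cannot be told apart from the replicate number. With 4 libraries this relation was not tested.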
